A study of Mus musculus with 5 samples.

Results

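En1, En2, Gbx2, Irx1, Irx2, Irx3, Irx5, Pax3 and Zic1 are 9 transcription factor genes that pattern the midbrain and hindbrain or the dorsal neural tube of the embryo. Every non-control probe carrying 1 of these gene names in the array files was taken, which gave 12 of 55681 probes (9 of 36163 names in the gene column), with 2 probes each for Irx2, Pax3 and Zic1. Engrailed and Gbx2 proteins act around the isthmic organiser, the signalling centre at the border between midbrain and hindbrain, where Gbx2 marks the hindbrain side. Zic1 and Pax3 act in the dorsal neural tube and neural crest, and Pax3 also acts in the dermomyotome. The Iroquois genes lie in genomic clusters and pattern the neural plate, and they are also active outside the nervous system, in limb, heart and skin.

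The study asked what cells the chemical-induced neural progenitor cells (ciNPC) are, by comparing them with fibroblasts and with neural progenitor cells. RNA from mouse cells was hybridised to 5 one-colour (Cy3) Agilent arrays with 60-base probes, 1 array a sample. One array held mouse embryonic fibroblasts (MEF) and one held neural progenitor cells derived from brain (NPC, the control). The other 3 held ciNPC, 1 at passage 5 (p5) and 2 at passage 13 (p13). The labels name no mouse strain, genotype, donor age, chemical or brain region, and leave it unsaid if the p13 replicates are separate cultures. The p-values therefore cover the scatter among these arrays only, and between the p13 replicates that scatter may be technical only. Against MEF or NPC the 3 ciNPC arrays form 1 group, so their scatter also holds any difference between passages.

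A level here is log2 of a probe's processed signal minus the 75th percentile of that array, so a step of 1 is 2-fold. Levels of different probes are not set against each other, because probes differ in brightness. Only the summed marker levels below add probes together, so the brightest probes weigh most in them. MEF and NPC were on slide 1 (scan 1) and all ciNPC on slide 2 (scan 2). Whether 1 gene differs by cell type or by slide cannot be told apart when ciNPC are set against MEF or NPC, while both arrays of NPC against MEF share a slide, as do all arrays of p13 against p5. Between 47.9% and 57.6% of non-control spots were well above background. The p13 replicate 2 array stood apart, with a spike-in slope of 0.803 against 0.915 to 0.987 on the others, and results that rest on it are given without it.

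The labelled cell types were checked against their markers. All 12 fibroblast markers were above background in MEF and in every ciNPC array, and Col1a1, Twist2, Pdgfrb, Lum and Postn were not above background in NPC. Their summed level, in multiples of the array's 75th percentile, was 1680 in MEF, 173 to 238 in ciNPC and 5.03 in NPC. The 12 neural progenitor markers summed to 18.8 in MEF, 349 to 444 in ciNPC and 518 in NPC, and Sox2, Sox3, Pax6, Olig2, Prom1 and Hes5 were not above background in MEF. Of 7 skeletal muscle markers, summed to 1.25 in MEF, 1.41 to 2.05 in ciNPC and 0.239 in NPC, Myod1 and Myf5 were not above background on any array. The muscle factor Myog was above background on the 3 ciNPC arrays only, exceeding MEF at least 6.16-fold and NPC at least 6.42-fold, and Des and Chrna1 were called higher than NPC. Summed levels of other cell types were 22.0 to 49.4 for neuron, 4.37 to 16.8 for endothelial, 1.74 to 3.78 for macrophage, 2.16 to 2.52 for melanocyte and Schwann, and 0.123 to 0.493 for epithelial markers over the 5 arrays. The neuron, endothelial and macrophage sums were highest in MEF. In bulk RNA, fewer cells of a type and less RNA per cell cannot be told apart.

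The probes are what each value was read with, and the opening 30 bases of those on which the calls below rest are shown 5′ to 3′, with the mm9 position of the whole probe as the files give it. No bases are marked.
En2 (chr5:28498468-28498528, plus strand): ttgtaatttaagagtctgtgaataaccatc
Gbx2 (chr1:91825013-91825072, minus strand): gagagtatattcattagacgggcttaaagg
Zic1 (chr9:91255425-91255484, minus strand): atccgcatgtaaagggtctggtttattcat
Irx1 (chr13:72095735-72095794, minus strand): ctttgtttcttttttcccctttctgtatat
Irx2 (chr13:72771499-72771558, plus strand): gatacctacggttccagtttattcacatag
Irx3 (chr8:94322476-94322535, minus strand): gtctgactctttttgtatatacgggaaaat
Irx5 (chr8:94884923-94884982, plus strand): tatggagatggatggcataaaaatgtatac
Zic1 and Irx2 have another probe each, shown whole because its values differ from those of the probe above. The Zic1 probe starts at base 1864 of its transcript, against 3048 for the probe above, and the Irx2 probe at base 821, against 2319.
Zic1, other probe (chr9:91257301-91257360, minus strand): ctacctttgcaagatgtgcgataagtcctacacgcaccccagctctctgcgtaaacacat
Irx2, other probe (chr13:72768784-72768843, plus strand): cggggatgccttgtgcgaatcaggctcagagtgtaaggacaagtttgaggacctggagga

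En2, Gbx2 and Zic1 were higher in ciNPC than in MEF, and Irx1, Irx2 and Irx3 were lower than in MEF but higher than in NPC. Of the 12 probes, 10 were well above background throughout at least 1 group and were tested, covering every gene but En1. In limma's fit over 35616 probes, with the 3 ciNPC arrays against 1 array of MEF or NPC, calls needed an adjusted p (Benjamini-Hochberg) under 0.05 and a 2-fold difference. Against MEF 6 of 10 probes were called, 3 higher and 3 lower, beside 23.8% of all probes tested (12.5% higher and 11.3% lower). Against NPC 3 of 10 were called, all higher, beside 2.78% of all probes (2.73% higher and 0.0533% lower). The median difference over all probes was -0.09 against MEF and -0.12 against NPC.

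**Figure D1:**
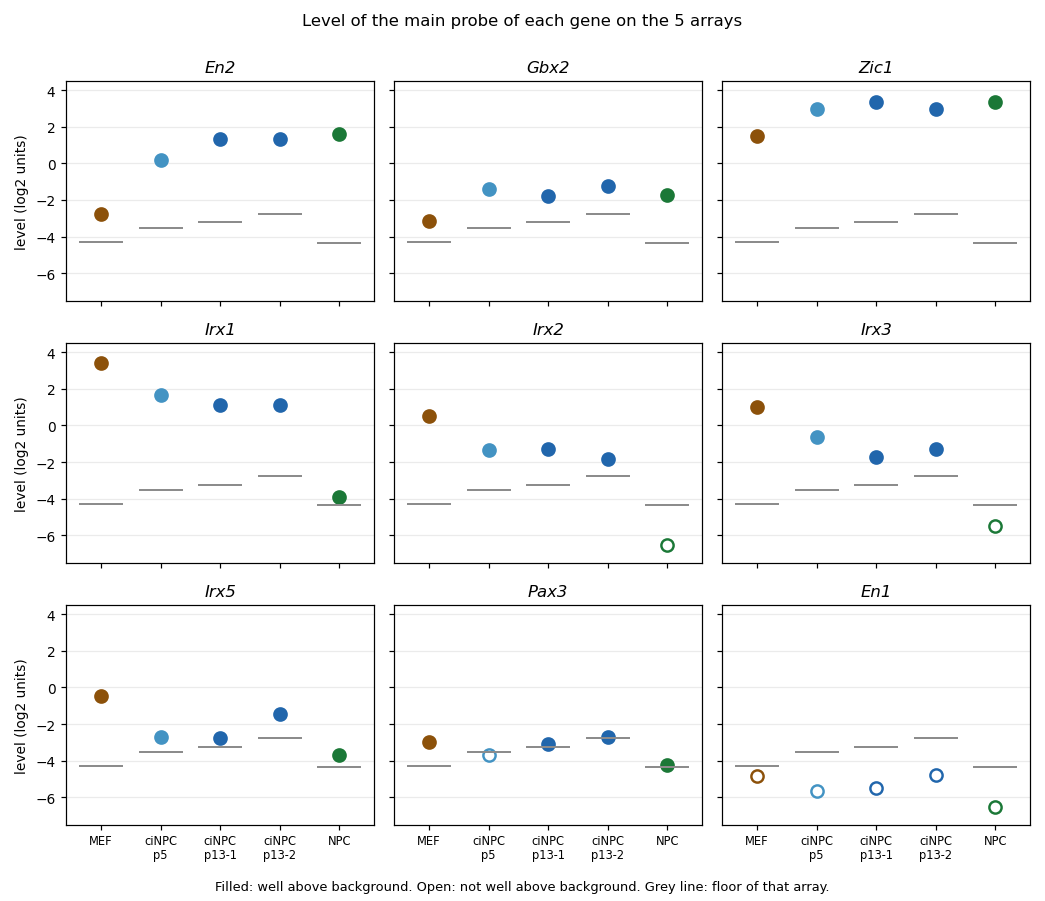
Level of the main probe of each of the 9 genes (y axis, log2 units relative to the 75th percentile of the array) on the 5 arrays (x axis, with the p13 replicates as p13-1 and p13-2). Filled points are well above background, open points are not, and grey lines mark the floor, the lowest level among probes well above background on that array; En2, Gbx2 and Zic1 lie higher in ciNPC and NPC than in MEF, Irx1, Irx2 and Irx3 lie lower in ciNPC than in MEF and lowest in NPC, and En1 is open throughout.

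En2, a homeobox factor of the midbrain and rostral hindbrain that is known for its part in cerebellar foliation, had the largest difference from MEF among the 10 probes. Its level was -2.74 in MEF, 0.21 in p5, 1.36 and 1.33 in p13 and 1.61 in NPC. All 3 ciNPC arrays lay above MEF and below NPC, and the p13 arrays lay closer to NPC than p5 did. The difference of ciNPC from MEF was 3.71 (SE 0.45, 95% interval 2.64 to 4.78, adjusted p 0.00111). Against NPC it was -0.65 (SE 0.45, interval -1.72 to 0.42, adjusted p 0.586), so a level up to 0.42 above or 1.72 below NPC is within the interval. As a share of the NPC level, En2 stood at 37.8% in p5 and at 83.6% and 81.8% in the p13 arrays.

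The En2 probe was printed 10 times on each array, and all 10 spots were well above background everywhere. The spots spread with an SD of 0.04 to 0.06 on the ciNPC and NPC arrays and 0.41 on MEF, where they ran from -3.49 to -2.05. In p5 they ran from 0.13 to 0.27, in p13 replicate 1 from 1.25 to 1.43, and in NPC from 1.51 to 1.65. No spot of p5 overlapped a spot of p13 or NPC. Spots of 1 array are repeat readings of 1 RNA sample and give the reading error only.

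En1, the paralog of En2 that is needed for midbrain and cerebellum and also acts in ventral limb ectoderm, was not well above background on any of the 5 arrays. Its probe was printed 10 times too, at chr1:122504067-122504126 (mm9), and 1 of 10 spots was above background in MEF and none elsewhere. Its measured level was -4.85 in MEF, -5.65, -5.47 and -4.76 in ciNPC and -6.51 in NPC, each under the floor of its array. En1 therefore has only an upper bound, the floor, of -4.29 in MEF, -3.52 in p5, -3.23 and -2.79 in p13 and -4.35 in NPC.

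**Figure D2:**
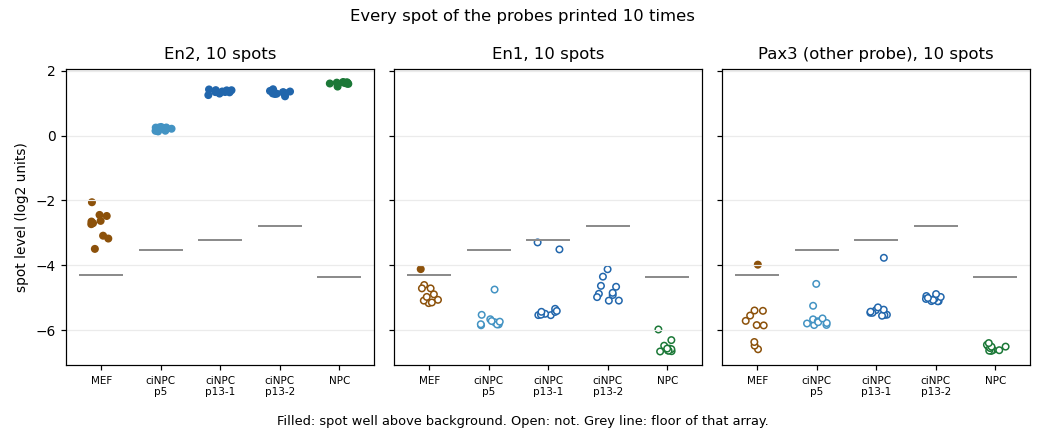
Every spot of the 3 probes printed 10 times (x axis, the 5 arrays; y axis, spot level in log2 units): En2, En1 and the other Pax3 probe. Filled spots are well above background and grey lines mark the floor of each array; En2 spots lie above the floor on all arrays, with p5 near 0.21 and p13 near 1.36 and 1.33, while En1 and this Pax3 probe have 1 filled spot each, in MEF.

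Gbx2, a homeobox factor of the rostral hindbrain that opposes Otx2 at the isthmus, was at -3.17 in MEF, -1.40 in p5, -1.76 and -1.24 in p13 and -1.71 in NPC. MEF was below the other 4 arrays, and NPC lay inside the ciNPC range. The difference of ciNPC from MEF was 1.70 (SE 0.38, interval 0.79 to 2.61, adjusted p 0.014). The difference from NPC was 0.24 (interval -0.67 to 1.16, adjusted p 0.814). The ciNPC mean was 325% of the MEF level and 118% of the NPC level.

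Zic1, a zinc finger factor of the dorsal neural tube and cerebellar granule cell precursors, was at 1.51 in MEF, 3.0 in p5, 3.35 and 3.0 in p13 and 3.38 in NPC. All ciNPC arrays lay above MEF and just under NPC. The difference from MEF was 1.61 (SE 0.17, interval 1.19 to 2.03, adjusted p 0.000722), and that from NPC was -0.26 (interval -0.68 to 0.16, adjusted p 0.578). The other Zic1 probe did not show this step. Its level was -2.10 in MEF, -1.87 in p5, -1.74 and -1.5 in p13 and -1.60 in NPC, above background on all 5 arrays. Its difference from MEF was 0.40 (SE 0.35, interval -0.45 to 1.24, adjusted p 0.447), and this interval and that of the brighter probe overlap only between 1.19 and 1.24.

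Pax3, a paired-box factor of dorsal neural tube, neural crest and dermomyotome, stayed near the floor. The main Pax3 probe, at chr1:78099294-78099353 (mm9), read -2.99 in MEF, -3.71 in p5, -3.10 and -2.71 in p13 and -4.23 in NPC, and was not well above background in p5. The ciNPC arrays lay on both sides of MEF and above NPC. It differed by -0.19 from MEF (SE 0.67, adjusted p 0.866) and by 1.06 from NPC (SE 0.67, interval -0.55 to 2.67, adjusted p 0.554). The second Pax3 probe, at chr1:78099476-78099535 with 10 spots an array, was not above background on any array and was not tested.

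Irx1 and Irx2 belong to the IrxA cluster on chromosome 13, where their probes lie 676 kb apart. Irx1 was at 3.43 in MEF, 1.68 in p5, 1.14 and 1.09 in p13 and -3.90 in NPC. The ciNPC arrays lay between the other cell types, below MEF and far above NPC. The difference was -2.13 from MEF (SE 0.27, interval -2.77 to -1.5, adjusted p 0.00125) and 5.20 from NPC (SE 0.27, interval 4.56 to 5.83, adjusted p 9.6e-05). The ciNPC mean was thus 22.8% of the MEF level, and NPC differed from MEF by -7.33.

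Irx2 was at 0.53 in MEF, -1.34 in p5 and -1.30 and -1.84 in p13, and was not well above background in NPC. It was 2.03 lower on the log2 scale in ciNPC than in MEF, a difference of -2.03 (SE 0.42, interval -3.03 to -1.03, adjusted p 0.00992), which left 24.6% of the MEF level. Against the floor of the NPC array ciNPC were at least 7.25-fold higher (adjusted p 0.00101) and NPC was at least 29.5-fold lower than MEF. The other Irx2 probe was above background in MEF (-2.97) and in p13 replicate 2 (-2.50) only. It was not above background in p5 (-5.82), p13 replicate 1 (-5.53) and NPC (-6.67). Its difference from MEF was -1.65 (SE 1.53, adjusted p 0.468), and with values under the floor raised to it -0.11. Without p13 replicate 2 both remaining ciNPC readings of this probe are below background, so the call it then gains gives no measured size.

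Irx3 and Irx5 belong to the IrxB cluster on chromosome 8, where their probes lie 562 kb apart. Irx3 was at 1.00 in MEF, -0.65 in p5 and -1.70 and -1.28 in p13, and was not well above background in NPC. The 3 ciNPC arrays lay below MEF and above the NPC floor. The difference from MEF was -2.21 (SE 0.46, interval -3.32 to -1.11, adjusted p 0.0103), which left 21.6% of the MEF level. Irx3 was at least 8.81-fold higher in ciNPC than in NPC (adjusted p 0.00348), and at least 40.8-fold lower in NPC than in MEF.

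Irx5 was at -0.48 in MEF, -2.70 in p5, -2.79 and -1.45 in p13 and -3.67 in NPC. The ciNPC arrays again lay between MEF and NPC without overlap, but p13 replicate 2 was over 2-fold above the other ciNPC arrays. The difference from MEF was -1.84 (SE 0.61, interval -3.30 to -0.37) and missed the threshold, with an adjusted p of 0.0578. Without p13 replicate 2 it was -2.27 (adjusted p 0.000817), and without p5 it was -1.64 (adjusted p 0.0366), both past the threshold. Without p13 replicate 1 it was -1.60 (adjusted p 0.0591) and again missed the threshold. Against NPC it was 1.36 (SE 0.61, interval -0.10 to 2.82, adjusted p 0.404).

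**Figure D3:**
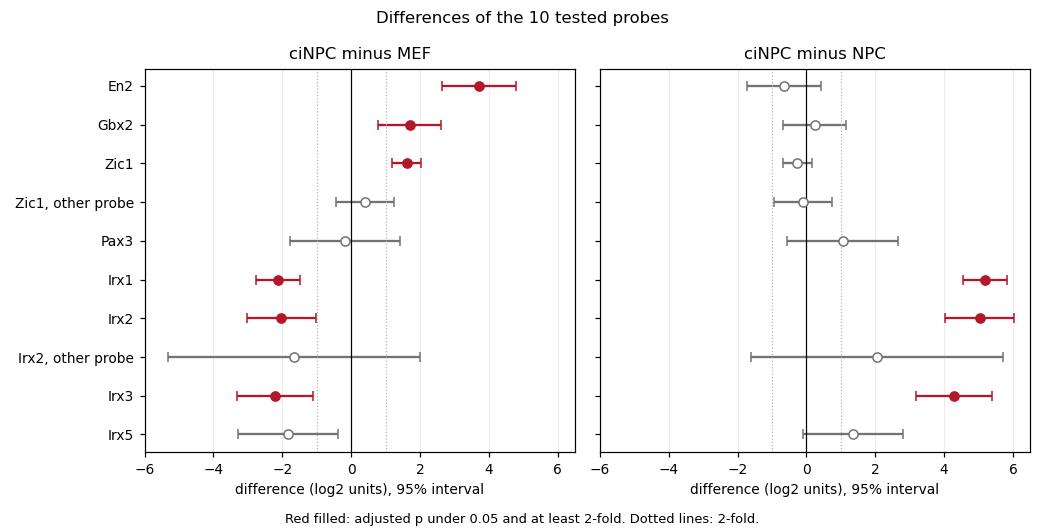
Difference of the 3 ciNPC arrays from MEF (left) and from NPC (right) for the 10 tested probes, in log2 units on the x axis, with 95% intervals from limma's fit. Red filled points passed the threshold: En2, Gbx2 and Zic1 to the right of MEF, Irx1, Irx2 and Irx3 to the left of MEF and to the right of NPC.

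Neural progenitor markers differed in the same direction as En2, Gbx2 and Zic1, with 10 of 12 higher in ciNPC than in MEF and none called against NPC. Their part in these levels was not tested. Irx1, Irx2 and Irx3 were each called lower than MEF and higher than NPC, as were 1.96% of all probes tested. These comparisons share the ciNPC arrays. The 3 ciNPC arrays all lay between MEF and NPC for 32.5% of probes tested. The fibroblast markers ran in the same order as these Iroquois genes, with 10 of 12 lower in ciNPC than in MEF and 11 of 12 higher than in NPC. Their part in the Iroquois levels was not tested. Without p13 replicate 2 the calls of Irx1, Irx2 and Irx3 against NPC still numbered 3, and against MEF 8 of the 10 probes were called. Calls over all 35616 probes also rose there, from 8486 to 11001 against MEF and from 991 to 1851 against NPC. Irx2 and Irx3 missed the threshold against NPC after quantile normalisation, with differences of 4.20 (adjusted p 0.0518) and 3.65 (adjusted p 0.0698).

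NPC and MEF had 1 array each, so their difference was described without a test. Called here means 4-fold or more once each value below its floor was set to that floor. Of the main probes of the 8 genes tested, En2 was higher in NPC, by 4.36, and Irx1, Irx2, Irx3 and Irx5 were lower, beside 14.2% of all probes (6.78% higher and 7.38% lower). Zic1 differed by 1.87, Gbx2 by 1.46 and Pax3 by -1.24, all under 4-fold. The other Zic1 probe was under 4-fold as well, at 0.50. The other Irx2 probe was not above background in NPC and was at least 2.60-fold lower there. It was not called at the floor, and whether its difference reached 4-fold cannot be told.

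Between passages, En2 was the only member probe called. It was higher in p13 than in p5 by 1.13 (SE 0.17, interval 0.79 to 1.47, adjusted p 0.000116, 2 arrays against 1), beside 0.831% of all probes called (0.629% higher and 0.202% lower). The neural progenitor markers summed to 349 in p5 and to 444 and 392 in p13, and their part in the En2 difference was not tested. This fit had 1 residual degree of freedom. The call was lost after quantile normalisation, where the difference was 1.16 (adjusted p 0.139), and without the intensity trend in the spread (adjusted p 0.681). Irx1 was lower in p13 by a difference of -0.57 (SE 0.15, adjusted p 0.0201), under 2-fold. Irx3 differed by -0.84 (SE 0.39, adjusted p 0.236) and Irx5 by 0.58 (SE 0.56, adjusted p 0.664). Gbx2 differed by -0.10, Zic1 by 0.17 and Irx2 by -0.23, and in these the p5 value lay within the p13 range. The other Zic1 and Irx2 probes and Pax3 differed by 0.25, 1.80 and 0.80, with adjusted p-values from 0.652 to 0.828.

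Some of the genes listed for the isthmus, where En2 and Gbx2 act, differed from MEF, in both directions. Of 17 isthmic organiser genes, 13 were tested, and 5 were higher and 2 lower in ciNPC than in MEF (median difference 0.88, beside -0.09 over all probes tested). Of all probes tested, 12.5% were called higher and 11.3% lower. The 5 higher were Spry1, Spry2, Spry4, Dusp6 and Etv5. The 6 not called were Wnt1, Fgf8, Pax2, Lmx1b, Etv4 and Sp8. The FGF feedback inhibitor Spry4 rose by 3.19 (SE 0.34) and the FGF target Etv5 by 2.47 (SE 0.12). The ligand Fgf18 differed by -3.37 (SE 0.24) and the FGF antagonist Il17rd by -1.55 (SE 0.19), and all 4 had adjusted p-values of 0.00125 or less. Without p13 replicate 2, 5 genes were higher and 5 lower, with a median of 0.43. Calls against MEF over all probes rose there from 8486 to 11001. Against NPC none of the 13 was called, with a median of -0.38. Pax8 and Cnpy1 were not above background on any array. Fgf17 and Pax5 were above background in p13 replicate 2 only, and Pax2 in MEF and p13 replicate 2 only. Without that array none of these genes was above background in ciNPC or NPC. Fgf8, the organiser's main ligand, singled out here after its values were seen, was above background in MEF (-4.04), p13 replicate 2 (-2.27) and NPC (-3.72) only.

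Of 19 midbrain genes, 14 were tested, with 2 higher and 4 lower than MEF (median -0.66), beside 12.5% and 11.3% of all probes. Otx2, the homeobox factor of forebrain and midbrain, was at least 17.9-fold higher in ciNPC than in MEF. Its relative Otx1 was called higher too. It was above background on 2 of 3 ciNPC arrays and not in MEF, so no lower bound is given. The dopaminergic neuron factor Nr4a2 differed by -3.52 (SE 0.16) and Gata2, above background on 1 of 3 ciNPC arrays, by -3.50 (SE 0.58). Adjusted p-values of these 4 were 0.0101 or less. Against NPC 3 were higher, beside 2.73% of all probes. These were the GATA factors Gata3 (at least 7.91-fold) and Gata2 and the ephrin ligand Efna5 (2.08, SE 0.28). Gata2 was above background in MEF and p5 only, so no lower bound against NPC is given. The median against NPC was 0.41, and -0.11 without p13 replicate 2, where 4 were higher. Calls against NPC over all probes rose there from 991 to 1851. Only 1 midbrain gene was higher than NPC after quantile normalisation or without the intensity trend.

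Hindbrain and cerebellar genes numbered 26, of which 21 were tested. Of these 2 were higher and 7 lower than MEF (median -1.01), beside 12.5% and 11.3% of all probes. Against NPC 6 were higher (median 1.16), beside 2.73% of all probes. The ciliogenesis factor Rfx4 was at least 205-fold higher than in MEF and the LIM homeobox factor Lhx2 higher by 5.18 (SE 0.27). The Hox genes Hoxa3 and Hoxb3, which mark the caudal hindbrain and more caudal levels, differed from MEF by -3.21 (SE 0.38) and -2.66 (SE 0.65). Hoxb3 was above background on 2 of 3 ciNPC arrays. Against NPC, Hoxb4 was at least 14.1-fold higher, Hoxb2 at least 13.3-fold and Hoxa3 at least 10.4-fold, with adjusted p-values of 0.000364 or less. None of these Hox genes was above background in NPC. The floor-limited calls went when only probes above background on all 5 arrays were kept, which left 6 of the genes and none called against NPC. Against MEF, 4 in place of 7 were lower without the intensity trend. From p5 to p13 the rhombomere factor Egr2 differed by -1.37 (SE 0.11, adjusted p 1.87e-08), and no gene of this list was called after quantile normalisation, in the deposited value table or without the intensity trend.

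Paralogs of the 9 genes gave 6 tested of 8. Zic2 exceeded its MEF level at least 14.7-fold, and no paralog was called against NPC. Irx4 was above background on 4 arrays and Irx6 in NPC only, and neither was called. The dorsal neural tube and neural crest list, in which Pax3 and Zic1 act, had 14 tested of 17. Of these 1 was higher and 4 lower than MEF (median -0.37), beside 12.5% and 11.3% of all probes. Against NPC 4 were higher (median 0.69), beside 2.73% of all probes. Sox9 was higher than MEF by 3.09 (SE 0.14), while Snai2, Bmp4 and Snai1 differed by -2.49, -2.47 and -2.15. Against NPC, Bmp4 was at least 84.1-fold and Snai1 at least 56.6-fold higher, Snai2 higher by 5.18 (SE 0.30) and the neurotrophin receptor Ngfr by 3.04 (SE 0.33). Without p13 replicate 2, 6 of this list were higher than NPC, while calls over all probes rose from 991 to 1851.

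Dermomyotome, dermis and limb mesenchyme genes, tissues in which Iroquois and Pax3 genes are also active, had 16 tested of 19. Of these 1 was higher and 8 lower than MEF (median -1.33), beside 12.5% and 11.3% of all probes. Against NPC 7 were higher (median 3.10), beside 2.73% of all probes. Without p13 replicate 2 or without p13 replicate 1, 10 were higher than NPC. Calls over all probes rose there from 991 to 1851 and to 1267. Against MEF, Meox1 differed by -5.52 (SE 0.86, above background on 2 of 3 ciNPC arrays), Tbx3 by -4.23 (SE 0.36) and Tbx18 by -2.54 (SE 0.62, on 1 of 3), and Tcf15 was at least 6.02-fold higher. Without the intensity trend 3 in place of 8 were lower. Against NPC, Twist2 was at least 70.4-fold, Tbx3 at least 21.5-fold and Twist1 at least 11.7-fold higher, and Dlk1 was higher by 7.73 (SE 0.23). Forebrain genes, which act rostral to the midbrain, had 9 tested of 17. Of these 5 were higher and 1 lower than MEF (median 2.78), beside 12.5% and 11.3% of all probes. Six3, an eye and forebrain factor, was at least 12.8-fold higher, and Lhx2 is in this list as well. Against NPC only Dlx2 was called, higher by 2.79 (SE 0.42), beside 2.73% of all probes called higher. That call was lost after quantile normalisation, and the list median was -0.08. With values under the floor raised to it, the list medians against MEF were 1.71 for forebrain and 1.03 for isthmic organiser genes. They were -0.49 for midbrain, -0.73 for hindbrain, and -1.22 for dermomyotome and limb genes. The ciNPC floors lie above the MEF floor, so a gene under the floor on all these arrays takes 1.11, as En1 does. These medians therefore carry the floors and do not rank the lists.

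Named genes with the profile most like each member over the 5 arrays were found by the root mean square difference between profiles centred on their own mean, among 20144 probes. They are given where neither the member nor the gene was under the floor on any array. Nearest to En2 was Vash1 (0.11), nearest to Gbx2 Mastl (0.07), nearest to Zic1 Gstm6 (0.04) and Gpr146 (0.05), and nearest to Irx5 Pik3cd (0.13). For Irx1 the nearest genes, and for Irx2, Irx3 and Pax3 the members themselves, were below the floor on at least 1 array, where a reading has no measured size. Against a range over arrays of 4.36 for En2 these differences are small, but 5 arrays hold few distinct profiles.

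Probes within 500 kb of a member probe were counted by call, beside 23.8% of all probes called against MEF (12.5% higher and 11.3% lower), and counts of so few probes give no result about a locus. Of 10 tested beside En2, the sterol regulator gene Insig1, 94.2 kb away, was called higher than MEF (1.42, adjusted p 0.0113), and it also differed by 0.72 between p13 and p5 (adjusted p 0.000911). Beside En1, 4 of 10 were called higher and 1 lower than MEF, with the Dbi probes highest at 2.09 and 2.15 and Steap3 at -1.14. Beside Gbx2, 1 of 6 was called higher than MEF, 4933400F21Rik. It was above background on 2 of 3 ciNPC arrays and not in MEF, so its difference has no measured size. The chemokine receptor gene Ackr3, 286.8 kb from Gbx2, was higher than NPC by 1.89 (adjusted p 0.0444). None of 2 tested beside Zic1, 7 beside Pax3 and 4 beside Irx2 was called in any limma comparison, and the 1 neighbour of Irx1 was not tested.

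In the IrxB cluster, 1 of 5 tested beside Irx3 was lower than MEF and 1 higher. The probe 6.4 kb away, named for an Ensembl transcript, differed from MEF by -1.37 (adjusted p 0.0331). The next, 7.2 kb away and named for another transcript, differed by -0.32 (adjusted p 0.715). The probe called higher was 4831440D22Rik, above background on 2 of 3 ciNPC arrays and not in MEF, so its difference has no measured size. Beside Irx5, 2 of 9 were lower than MEF and none higher, beside 11.3% and 12.5% of all probes tested. The probes for a transcribed interval near Irx5 disagreed. The probe 34.4 kb away was at -0.35 in MEF, not above background in any ciNPC array and at -2.20 in NPC, so it was at least 7.11-fold lower in ciNPC than in MEF (adjusted p 0.00253). The probes of the same interval 34.6 and 34.7 kb away, above background on all 5 arrays, differed from MEF by 0.50 and 0.68 and were not called, and 2 others were not above background on any array. The matrix protease gene Mmp2, 491.9 kb away, differed from MEF by -2.31 (adjusted p 0.000211).

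**Figure D4:**
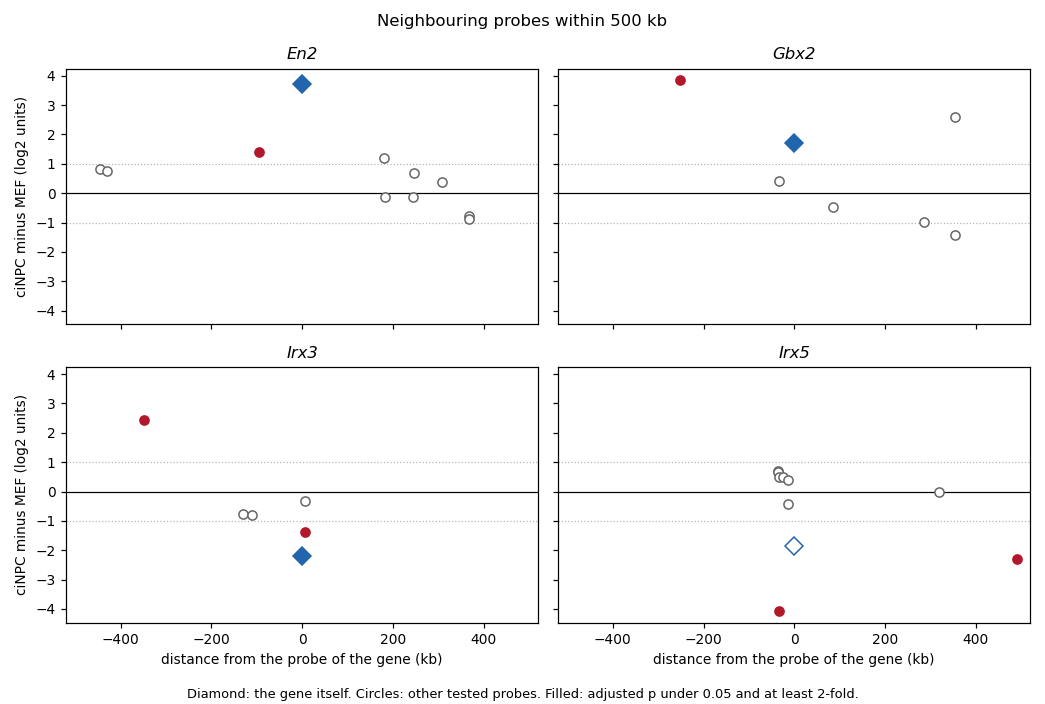
Difference of ciNPC from MEF (y axis, log2 units) for tested probes within 500 kb of the En2, Gbx2, Irx3 and Irx5 probes (x axis, distance from the member probe in kb). Diamonds are the member itself and circles other probes, filled where the threshold was passed; beside Irx5 the filled circle at 34.4 kb lies below 0 and the other circles near that distance lie above it.

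Promoter sequence was at hand in RefSeq (GRCm38.p6) for En1, Gbx2, Zic1, Irx2 and Irx3, as the 250 bases before the start of the gene. All 5 are rich in CG dinucleotides, with 19 in En1, 18 in Gbx2, 27 in Zic1, 19 in Irx2 and 13 in Irx3, against a median of 6 over 32851 promoters. The promoters of Irx2 and Irx3, both lower than MEF, and of Gbx2, higher than MEF, are shown for comparison, with matches on either strand to the CCAAT box, the GC box GGGCGG, the E-box CACGTG, the TATA box TATAAA and the homeodomain core TAATTA in capitals.
Irx2 (chr13:72628570-72628819): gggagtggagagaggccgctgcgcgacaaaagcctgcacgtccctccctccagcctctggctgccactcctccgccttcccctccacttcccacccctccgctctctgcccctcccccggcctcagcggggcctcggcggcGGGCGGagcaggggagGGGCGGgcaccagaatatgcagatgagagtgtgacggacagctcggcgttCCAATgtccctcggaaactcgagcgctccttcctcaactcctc
Irx3 (chr8:91801655-91801904): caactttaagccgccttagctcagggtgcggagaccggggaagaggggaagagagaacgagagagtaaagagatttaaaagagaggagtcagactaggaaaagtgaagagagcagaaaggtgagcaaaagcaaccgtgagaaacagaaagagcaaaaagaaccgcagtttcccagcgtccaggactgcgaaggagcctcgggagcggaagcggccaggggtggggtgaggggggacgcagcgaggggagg
Gbx2 (chr1:89931177-89931426): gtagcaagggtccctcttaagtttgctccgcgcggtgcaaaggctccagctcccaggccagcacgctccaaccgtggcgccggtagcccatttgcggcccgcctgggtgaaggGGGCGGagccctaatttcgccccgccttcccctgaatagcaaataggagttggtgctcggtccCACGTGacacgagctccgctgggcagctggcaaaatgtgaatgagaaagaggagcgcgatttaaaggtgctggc
Irx2 holds 2 GGGCGG and 1 CCAAT, Gbx2 holds 1 GGGCGG and 1 CACGTG, and Irx3 holds none of the 5 motifs in this window. Zic1 holds 2 CCAAT, 2 GGGCGG and 1 CACGTG, and En1 holds 2 CCAAT and 2 CACGTG. Of all promoters of this length, 33.8% hold CCAAT, 32.7% GGGCGG, 6.02% CACGTG, 12.4% TATAAA and 4.84% TAATTA. A match describes the letters only.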

How the data were processed

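Total RNA of 5 mouse samples was hybridised to Agilent arrays. The authors extracted spots with Feature Extraction 10.7.1.1 (submitters' processing notes and file headers, build mm9), and the deposited intensity of each spot, per the file headers, is background-subtracted and detrended, and arrays are not brought to 1 scale. In the deposited value table the log2 values have a median of 5.64 in each column, so it was read as quantile normalised. From the intensities, log2 values were scaled to each array's 75th percentile, spots flagged as outliers were dropped and spots of a probe averaged. limma 3.58.1 (R 4.3.3; lmFit, eBayes with intensity trend) had 2 residual degrees of freedom with 3 cell types and 1 with 4 groups, with the spread of the single MEF and NPC arrays taken from ciNPC. The number of arrays limits the precision. Lower bounds take a dim group at its floor, the lowest level among probes well above background.

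The members and lists were chosen with earlier results of these data known. All members were described; the main probe is the brightest over the arrays. Up to 4 called genes per list and comparison with the largest differences, up to 2 nearest profiles and up to 3 neighbours per locus were named; some genes the rule takes are not reported here. The script was tested on simulated data. Alternatives covered background, scaling, the filter, the trend and left-out arrays.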

Additional observations from a re-analysis of the deposited data

How the results depend on the processing

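Against MEF, the number of member probes called ran from 5 (no intensity trend, or probes above background on all 5 arrays) to 8 (without p13 replicate 2), with 6 to 8 over the left-out arrays. The filter on all 5 arrays kept 6 of the 10 member probes, so there it was 5 of 6. All probes called against MEF numbered 8486 in the main setting, 6914 without the trend and 11001 without p13 replicate 2. With the filter on all 5 arrays they numbered 6841 of 22469. Irx3 lost its call without the trend (adjusted p 0.0644), and Irx5 gained one with normexp background (-1.27, adjusted p 0.027). Against NPC, 1 member probe in place of 3 was called after quantile normalisation and in the deposited value table. With probes above background on all 5 arrays, 1 of 6 was called, Irx1. That filter removed Irx2 and Irx3, which were not above background in NPC, so their calls could not be kept. Without the trend 2 were called, and Irx3 lost its call against NPC (adjusted p 0.0949). All probes called there, 991 in the main setting, numbered 577 after quantile normalisation, 574 in the value table, 588 with the filter on all 5 arrays, 340 without the trend and 1267 to 1851 with an array left out. For p13 against p5, 0 member probes in place of 1 (En2) were called after quantile normalisation, in the value table and without the trend. All probes called in that comparison, 296 in the main setting, numbered 3 after quantile normalisation, 3 in the value table, 116 with the filter on all 5 arrays, 152 with 1 probe a gene and 0 without the trend, where limma gave 1934 with an unadjusted p under 0.05 (6651 in the main setting). Apart from the removal of probes by a filter, the causes were not tested. Leaving out a p13 array left no residual degrees of freedom in that comparison, so it gave values with no test. Signs turned only in uncalled differences. Pax3 against MEF was 0.05 with normexp and ran from -0.42 to 0.08 with an array left out, and the other Zic1 probe against NPC was 0.03 with the percentile over detected probes. For p13 against p5, Gbx2 was 0.04 with normexp. With 1 p13 array left out, Gbx2 ran from -0.36 to 0.16, Zic1 from 0.00 to 0.34, Irx2 from -0.50 to 0.03 and Irx5 from -0.09 to 1.25. Another scaling moved the median of all probes against MEF from -0.09 to 0.06 (percentile over detected probes) and that between passages from 0.12 to -0.05 (quantile normalisation). No paired analysis was possible, because MEF, p5 and NPC have 1 array each and the labels match no arrays across groups.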
